A study of Homo sapiens with 6 samples.

Results

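Imprinted growth genes were described across 6 total RNA sequencing libraries of a human neuroblastoma cell line. The set held 10 genes, *DLK1*, *MEG3* and *MEG8* at 14q32, *IGF2*, *H19* and *CDKN1C* at 11p15, *PEG3* at 19q13, *PEG10* at 7q21 and *SNRPN* and *NDN* at 15q11. They were taken by gene symbol, and all 10 were found among the 60651 genes of the tables. The titles named 3 libraries for ethanol (EtOH) and 3 for tetracycline (Tet), and the comparison asks which of these genes differ when the inducible *MYCN* system is switched with tetracycline. Per the labels, tetracycline was given for 5 days; no time was given for EtOH. The cell model was not named in the same way throughout. The titles gave IMR-5/75, a *MYCN*-amplified line, and a tag was headed knockdown, but the protocol text was about SK-N-SH cells with tetracycline-inducible *MYCN* expression, kept as single clones under G418 and blasticidin. That system, a tetracycline repressor with the inducible construct, was shared by both groups in the protocol text. In the paper, IMR-5/75 cells carry an inducible short hairpin RNA against *MYCN*, are selected with zeocin and blasticidin, and tetracycline starts the knockdown. Selection with G418 and blasticidin is given there for SK-N-AS clones with inducible *MYCN* expression. The titles thus go with the knockdown model of the paper, whereas the protocol text does not. Groups are therefore called by their titles, and no direction of *MYCN* is drawn from them. *MYCN* itself measured 190 ± 57.4 CPM (read counts scaled to a common library total; SD, n = 3) in EtOH libraries and 181 ± 30.6 CPM in Tet libraries (edgeR quasi-likelihood test, adjusted p = 0.956). These are RNA levels, whereas the paper checked the IMR-5/75 knockdown on MYCN protein, by western blot. The RNA values do not say whether the protein changed.

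Genomic imprinting silences 1 parental copy of a gene, by DNA methylation that was laid down in egg or sperm at a control region. Imprinted genes sit in clusters, where a long noncoding RNA is often expressed from the copy on which the neighbouring protein-coding genes are silent. Paternally expressed members such as *IGF2* and *DLK1* are known to promote fetal growth, and maternally expressed ones such as *H19* and *CDKN1C* to restrain it. *DLK1* is also known as a surface protein of chromaffin and neuroblastoma cells. Of the 10 genes, 6 are expressed from the paternal copy (*DLK1*, *IGF2*, *PEG3*, *PEG10*, *SNRPN* and *NDN*) and 4 from the maternal copy (*MEG3*, *MEG8*, *H19* and *CDKN1C*). The values here do not separate the parental copies. In bulk RNA, fewer cells that express a gene and less RNA per cell cannot be told apart.

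RefSeq promoters (GRCh38.p14, 250 bases before to 50 after the start) were at hand for 4 members, *MEG3*, *H19*, *SNRPN* and *NDN*. They are printed because *SNRPN* and *NDN* were the members of 1 cluster without any count, whereas *MEG3* and *H19* are the noncoding partners of *DLK1* and *IGF2*. Capitals mark TGCCGC, on either strand, the hexamer bound by the imprint-protecting zinc finger protein ZFP57 when methylated.
*MEG3*, chr14:100825858-100826157, plus strand: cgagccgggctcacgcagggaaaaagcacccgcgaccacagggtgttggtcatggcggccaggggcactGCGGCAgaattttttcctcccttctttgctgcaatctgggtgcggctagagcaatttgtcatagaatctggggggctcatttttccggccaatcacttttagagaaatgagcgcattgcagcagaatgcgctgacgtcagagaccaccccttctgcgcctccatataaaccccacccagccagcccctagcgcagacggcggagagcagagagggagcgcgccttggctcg
*H19*, chr11:2001217-2001516, minus strand: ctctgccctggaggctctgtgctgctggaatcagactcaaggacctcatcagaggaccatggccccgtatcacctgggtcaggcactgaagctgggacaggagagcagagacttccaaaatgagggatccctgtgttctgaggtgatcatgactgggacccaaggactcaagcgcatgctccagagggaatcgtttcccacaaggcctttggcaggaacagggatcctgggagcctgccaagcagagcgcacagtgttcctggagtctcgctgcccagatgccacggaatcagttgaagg
*SNRPN*, chr15:24954737-24955036, plus strand: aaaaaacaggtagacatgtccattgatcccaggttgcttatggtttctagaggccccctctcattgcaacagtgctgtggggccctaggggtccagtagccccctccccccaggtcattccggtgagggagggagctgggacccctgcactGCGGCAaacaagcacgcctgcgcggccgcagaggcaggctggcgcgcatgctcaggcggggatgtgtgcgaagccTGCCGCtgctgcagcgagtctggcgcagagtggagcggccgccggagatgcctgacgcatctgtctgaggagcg
*NDN*, chr15:23687256-23687555, minus strand: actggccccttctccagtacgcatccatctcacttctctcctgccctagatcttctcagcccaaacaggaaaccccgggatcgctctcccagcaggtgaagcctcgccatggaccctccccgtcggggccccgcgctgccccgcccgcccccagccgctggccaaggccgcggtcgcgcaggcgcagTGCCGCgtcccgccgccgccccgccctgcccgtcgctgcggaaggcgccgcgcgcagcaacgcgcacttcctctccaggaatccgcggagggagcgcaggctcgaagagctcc
Of the 4 *SNRPN* starts in the table, the one shown lies at the imprinting centre of the Prader-Willi region. Another, chr15:24956050-24956349, lies close to it, so this place does not single out the one shown. The *SNRPN* promoter shown held 2 hexamers, and the others 0, 0 and 1. The *MEG3* and *NDN* promoters held 1 each and the *H19* promoter 0. Other *MEG3* starts, whose promoters overlap the one shown, held 1 hexamer each and 17 and 18 CpG dinucleotides. Of 35116 RefSeq promoters of the same length, 16.7% held the hexamer. The CpG dinucleotide, the target of methylation, occurred 19 times in the *MEG3* promoter, 6 times in that of *H19*, 18 times in the *SNRPN* promoter shown (7, 2 and 11 times in the others) and 35 times in that of *NDN*, against a median of 14. The E-box CACGTG, which MYC proteins bind, was searched on both strands and found in none of the 4 promoters and in 7.26% of all. Absence of these letters says nothing of binding elsewhere.

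The libraries held between 27933378 and 40498065 counts, so that 3 counts, the limit that a count of 0 allows, corresponded to between 0.0741 and 0.107 CPM in a library. Such limits, and the intervals on counts below, cover counting error only. In all libraries, protein-coding genes with GC-rich exons had low levels. Their median was 22.6 TPM (the level per exon length, scaled to the same total in each library) up to 40% GC and 0.0888 TPM over 65% GC. Genes over 60% GC took 0.497% of protein-coding counts in Tet replicate 3 and between 0.204% and 0.27% in the other 5 libraries. On the first principal component, which held 44.7% of the variance, EtOH replicate 2 (84.2) and Tet replicate 2 (47.3) lay apart from the other 4 libraries (-55 to -1.81). The second component, with 25.7% of the variance, parted the groups. EtOH libraries lay there between -39.1 and -34.7 and Tet libraries between 26.4 and 48.1. Markers of adrenergic neuroblastoma cells summed to between 425 and 471 CPM in EtOH and between 537 and 641 CPM in Tet libraries, with *GATA3* and *HAND2* high and *TH*, the tyrosine hydroxylase of catecholamine synthesis, at 1 count in all. None of these 8 markers was at 0. Fibroblast or mesenchymal markers summed to between 74.2 and 155 CPM in EtOH and between 56 and 79.9 CPM in Tet libraries, 1 of the 6 (*COL1A2*) being at 0, and *PRRX1* was the most abundant of them. Schwann cell markers summed to at most 4.78 CPM with *S100B* at 0, leukocyte markers to at most 1.2 CPM with *CD3E* at 0 and endothelial markers to at most 0.112 CPM with *VWF* at 0. The labels do not say whether replicates were separate cultures, and p-values measure only the spread between these libraries.

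Most of the imprinted growth genes were expressed at a low level or not detected. A count was found for 7 of the 10 genes, and *PEG3*, *SNRPN* and *NDN* were at 0 in every library. By expressed copy, all 4 maternally expressed and 3 of the 6 paternally expressed members had a count. *DLK1* led the set, with a mean of 3.84 TPM and a range from 2.38 to 5.6 TPM, and its lowest library lay above the highest library of every other member. *MEG3* and *MEG8* followed with means of 0.195 TPM (0.159 to 0.275) and 0.187 TPM (0.167 to 0.208), and their ranges overlapped. *IGF2* at 0.117 TPM (0.0511 to 0.184), *CDKN1C* at 0.1 TPM (0 to 0.242) and *PEG10* at 0.0805 TPM (0.0403 to 0.138) could not be ordered beyond their spread. *H19* had 0.0141 TPM, from 4 counts in 1 library. *DLK1* ranked 13732 of all genes by TPM and *MEG3* 29188.

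**Figure D1:**
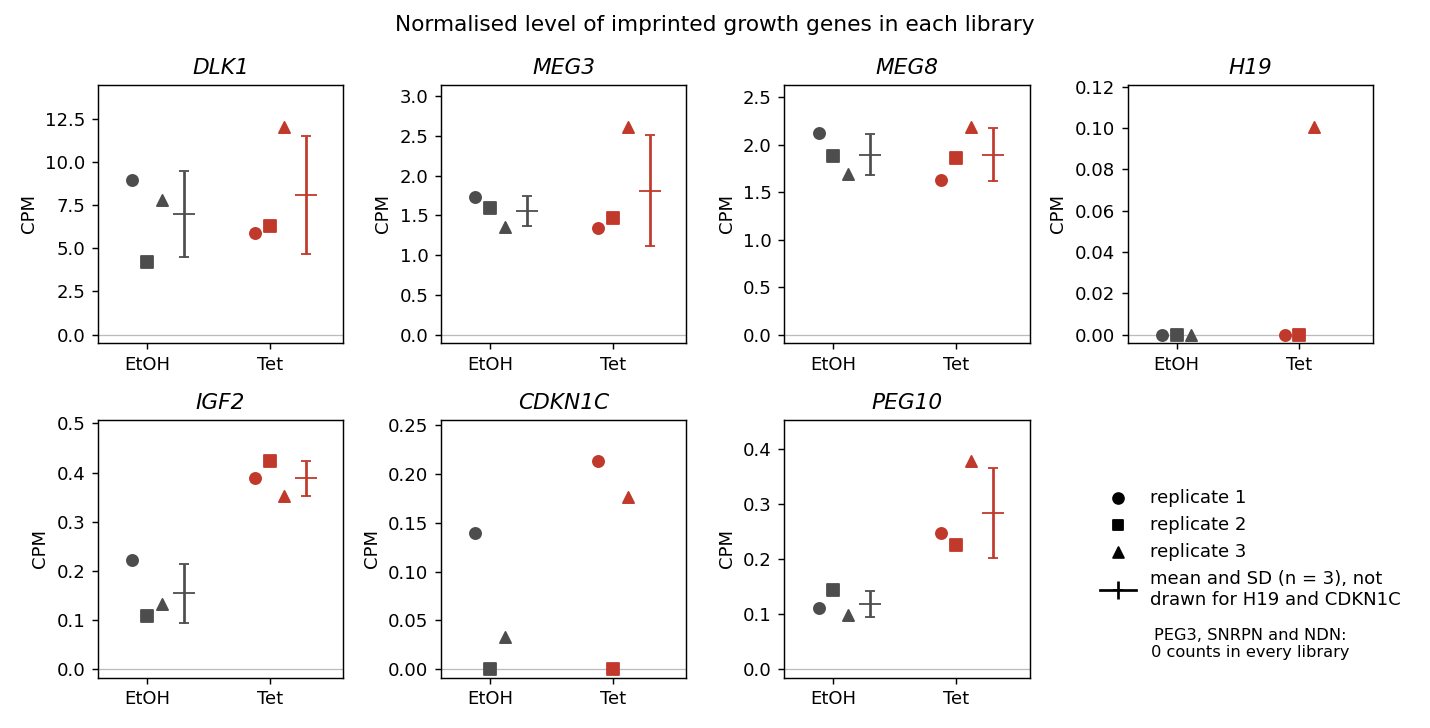
Level (CPM, linear axis) of the 7 genes with a count in each of the 3 EtOH (grey) and 3 Tet (red) libraries, the marker shape giving the replicate and the bars the mean and SD. Only *IGF2* and *PEG10* have all Tet libraries above all EtOH libraries, whereas Tet replicate 3 is the highest library for *DLK1*, *MEG3* and *MEG8*.

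The low levels were read against genes of like base composition, given the low values of GC-rich genes. *DLK1*, with 55.7% GC in its exons, had a level at or above that of 90.6% of the 3196 protein-coding genes between 55% and 60% GC, whose median was 0.321 TPM. *CDKN1C* (67.3% GC) stood near the middle of its class, at or above 53.2% of genes, as did *IGF2* (60.6% GC), at or above 44.9%. *MEG3* (50.9% GC) and *H19* (63.2% GC), both noncoding, stood at or above 36.6% and 25.8% of protein-coding genes of their class. *MEG8* (37.5% GC) and *PEG10* (44.8% GC) stood at or above 20.2% and 20.3% of protein-coding genes of their classes, where the medians were 22.6 and 10.8 TPM. *MEG8* too is noncoding, and its level is spread over 27506 exon bases, as that of *MEG3* is over 23224. *PEG3* (44.3% GC), *SNRPN* (49.5% GC) and *NDN* (52.2% GC) were at 0 like 11.2%, 16.3% and 19.1% of protein-coding genes in their classes.

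**Figure D2:**
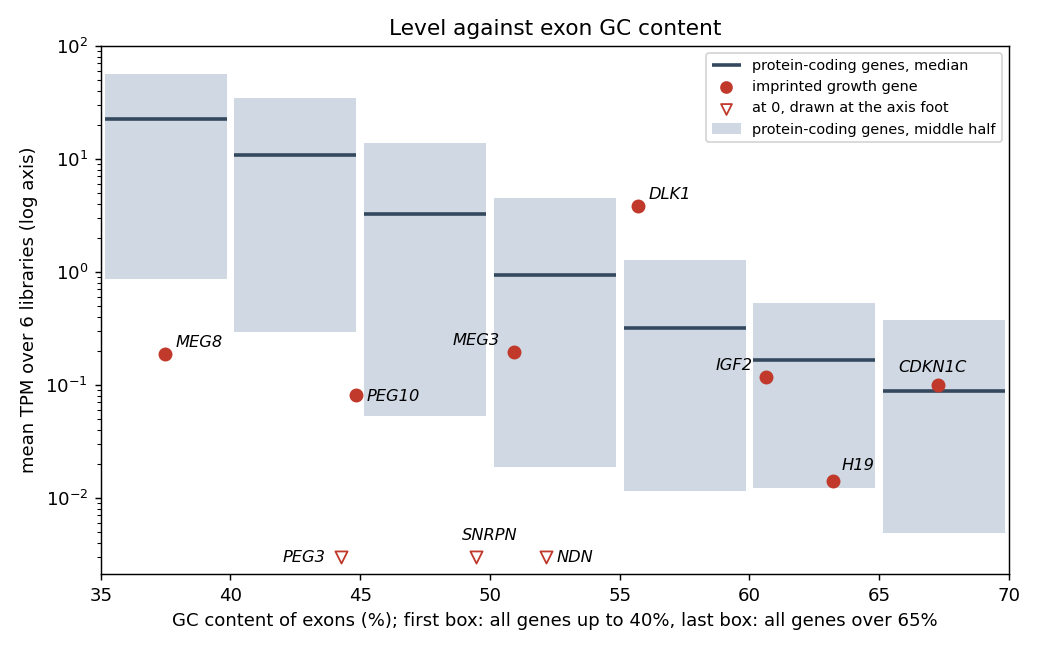
Mean TPM over 6 libraries (log axis) against the GC content of exons, for protein-coding genes in classes of GC content (boxes from the lower to the upper quartile, line at the median) and for the imprinted growth genes (red points; open triangles for genes at 0, drawn at the foot of the axis). Class medians run from 22.6 TPM to 0.0888 TPM with GC content, *DLK1* lies above the box of its class, and *MEG8* and *PEG10* lie below theirs.

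At 14q32, the paternally expressed *DLK1*, a Notch-like transmembrane inhibitor of differentiation, and the maternally expressed noncoding RNAs *MEG3* and *MEG8* were measured in every library. *DLK1* (ENSG00000185559.16, chr14:100725705-100738224, plus strand) had 8.96, 4.22 and 7.8 CPM in EtOH replicates 1 to 3 and 5.88, 6.32 and 12.1 CPM in Tet replicates 1 to 3. The groups overlapped, with EtOH replicate 2 the lowest and Tet replicate 3 the highest library. Means were 6.99 ± 2.47 CPM (SD, n = 3) and 8.09 ± 3.44 CPM. The log2 fold change was 0.21 (SE 0.37, 95% interval -0.64 to 1.06; adjusted p = 0.906 by edgeR, between 0.773 and 0.989 under other settings). Without EtOH replicate 2 the log2 fold change was -0.04, and without Tet replicate 3 it was -0.19.

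*MEG3* (ENSG00000214548.18, chr14:100779410-100861031, plus strand), a noncoding RNA known to raise p53 activity, had 1.73, 1.59 and 1.36 CPM in EtOH and 1.35, 1.47 and 2.62 CPM in Tet libraries. Tet replicate 3, the library with the largest share of GC-rich genes, lay above the rest, and the other libraries overlapped. The log2 fold change was 0.22 (SE 0.36, 95% interval -0.60 to 1.04) (adjusted p = 0.896 by edgeR), and without Tet replicate 3 it was -0.14. *MEG8* (ENSG00000225746.13, chr14:100894770-101038859, plus strand), which hosts small nucleolar RNAs (snoRNAs), had 2.12, 1.88 and 1.69 CPM in EtOH and 1.63, 1.86 and 2.19 CPM in Tet libraries. Its group means were both 1.89 CPM, and the log2 fold change was 0.0013 (SE 0.29, 95% interval -0.67 to 0.67; adjusted p = 0.999 by edgeR). With a correction for GC content, which was chosen after seeing the data, the log2 fold changes were 0.14 for *DLK1*, 0.23 for *MEG3* and -0.04 for *MEG8*.

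The balance of the 14q32 transcripts was compared within each library, per kilobase of exon. Merged exon lengths were 23224 bases for *MEG3* and 5247 for *DLK1*, and they enter the ratio. Without length, the mean levels over 6 libraries were 1.68 and 7.54 CPM. Per kilobase, *MEG3* lay below *DLK1* by between 11.7-fold and 25.2-fold. The mean log2 ratio was -4.24 ± 0.60 (SD, n = 3) in EtOH and -4.28 ± 0.06 in Tet libraries. The ratio in EtOH replicate 2, -3.55, was the highest of the 6, and the groups overlapped (difference -0.04, exact two-sided permutation test, p = 1; the smallest p that 3 libraries against 3 allow is 0.1). *MEG3* and *MEG8* had nearly equal levels per kilobase, with log2 ratios of -0.04 ± 0.03 in EtOH and 0.12 ± 0.33 in Tet libraries (difference 0.16, exact permutation test, p = 0.9). In Tet replicate 3 alone the ratio was as high as 0.50. Over the 6 libraries, log2 CPM of *DLK1* and *MEG3* had a Pearson r of 0.68, *DLK1* and *MEG8* 0.59 and *MEG3* and *MEG8* 0.87. These are descriptions over libraries that share depth and base composition. Among 16718 genes with at least 1 CPM, the patterns most like *MEG3* were those of *DRAP1* and *TRAF7* (r = 0.997 each), whose exons held 64.8% and 61.5% GC. Most like *DLK1* were *ZNF8-ERVK3-1* (r = 0.996, 53.6% GC) and *MT-ATP6* (r = 0.995, 44.2% GC). Most like *MEG8* were *OTUB1* (r = 0.983, 58.6% GC) and *TSPAN18* (r = 0.973, 56.5% GC). The part of base composition in these patterns was not tested.

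The rest of the 14q32 cluster was sparse. *RTL1*, a paternally expressed gene derived from a retrotransposon, had 1 count in all libraries together, and *MEG9* had 0. Within 500000 bases of the members lay 55 annotated microRNA genes, of which 5 had a count, with 19.5 counts in all, and 47 snoRNA genes, of which 36 had a count, with 175.5 counts in all. Mature microRNAs are shorter than the fragments of such libraries. Exon bases of *MEG3* and *MEG8* overlapped those of *MIR493HG*, which had 46 counts, and reads there were split between genes. Some of the snoRNA genes lie wholly within *MEG8* exons, such as *SNORD114-1* and *SNORD114-28* (100% of bases shared). Others, such as *SNORD114-7*, share 0%. The snoRNA counts thus hold in part reads split with *MEG8*, and are not all separate detections. The flanking gene *WARS1*, a tryptophanyl-tRNA synthetase that is not imprinted, had 17.4, 16.8 and 17.5 CPM in EtOH and 32.9, 20.8 and 36.7 CPM in Tet libraries. Its groups did not overlap, but its log2 fold change, 0.81 (SE 0.23), missed the threshold over all genes (adjusted p = 0.224 by edgeR).

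At 11p15, the growth factor gene *IGF2* and its maternally expressed noncoding neighbour *H19* were barely detected. *IGF2* (ENSG00000167244.21, chr11:2129112-2141238, minus strand) had 7.67, 3.33 and 3.83 estimated counts in EtOH and 11, 14.67 and 14.33 in Tet libraries. In CPM these were 0.223, 0.108 and 0.132 against 0.39, 0.423 and 0.352, so that every Tet library lay above every EtOH library. Groups parted in this direction for 6.82% of the 40467 genes with a count, and for 2 of the 7 members with one, *IGF2* and *PEG10*. The log2 fold change of *IGF2* was 1.28 (SE 0.52, 95% interval 0.10 to 2.47), with an unadjusted p of 0.0366 by edgeR, a level that 10.8% of all 22443 tested genes were under, and an adjusted p of 0.425 (between 0.322 and 0.884 under other settings). From the rounded counts, 40 in Tet and 15 in EtOH libraries, the Tet level was 2.33 times the EtOH level, with an exact counting interval from 1.26 to 4.54. Only the Tet libraries carried *IGF2* past the filter on low counts, so its place among tested genes already needed a high Tet value. As the groups did not overlap, the sign was bound to hold without each library in turn. Log2 fold changes then ran from 1.10 to 1.64, and the value was 1.12 with the GC correction.

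The reads of *IGF2* cannot be assigned to it alone, since 72.1% of its exon bases lie in other genes. Over all libraries *IGF2* had 54.83 counts, the overlapping protein-coding gene ENSG00000284779 had 53.83 and the readthrough gene *INS-IGF2* had 18.34. Summed over *IGF2* and the 4 genes that share its exons, the level was 0.502, 0.288 and 0.33 CPM in EtOH libraries. In Tet libraries it was 0.922, 0.959 and 0.805 CPM. This sum holds the same reads, split among these genes, so its lack of overlap is not a separate observation. *INS* and *IGF2-AS* were at 0. *H19* (ENSG00000130600.19, chr11:1995176-2001470, minus strand), an abundant fetal noncoding RNA that hosts miR-675, had 0 counts in all EtOH libraries and in Tet replicates 1 and 2, and 4 counts in Tet replicate 3. Those 4 counts fell in the library with the largest share of GC-rich genes, and the part of base composition in them was not tested. A ratio of *H19* to *IGF2* was not formed, because *H19* had under 3 counts in 5 libraries.

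*CDKN1C* (ENSG00000129757.14, chr11:2883213-2885775, minus strand), which encodes the cyclin-dependent kinase inhibitor p57, had 5, 0 and 1 counts in EtOH and 6, 0 and 7 counts in Tet libraries. The groups overlapped, replicate 2 being at 0 in both. The Tet level was 1.89 times the EtOH level from 13 and 6 counts, with an exact counting interval from 0.671 to 6.07 that includes no change (exact permutation test on CPM, p = 0.4). In the same domain, *KCNQ1OT1*, the paternally expressed antisense RNA that silences *CDKN1C* in cis, was abundant. It had 758, 1151 and 857 CPM in EtOH and 970, 1021 and 1118 CPM in Tet libraries, 29.1 TPM on average, and its log2 fold change was 0.17 (SE 0.19, adjusted p = 0.826 by edgeR). The other genes of the domain were scarce, *KCNQ1* with 5.5 counts in all, *SLC22A18* with 10 and *PHLDA2* with 0. *KCNQ1OT1* exons hold 43.7% GC and those of *CDKN1C* 67.3%, and the part of base composition in the difference of their levels was not tested.

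**Figure D3:**
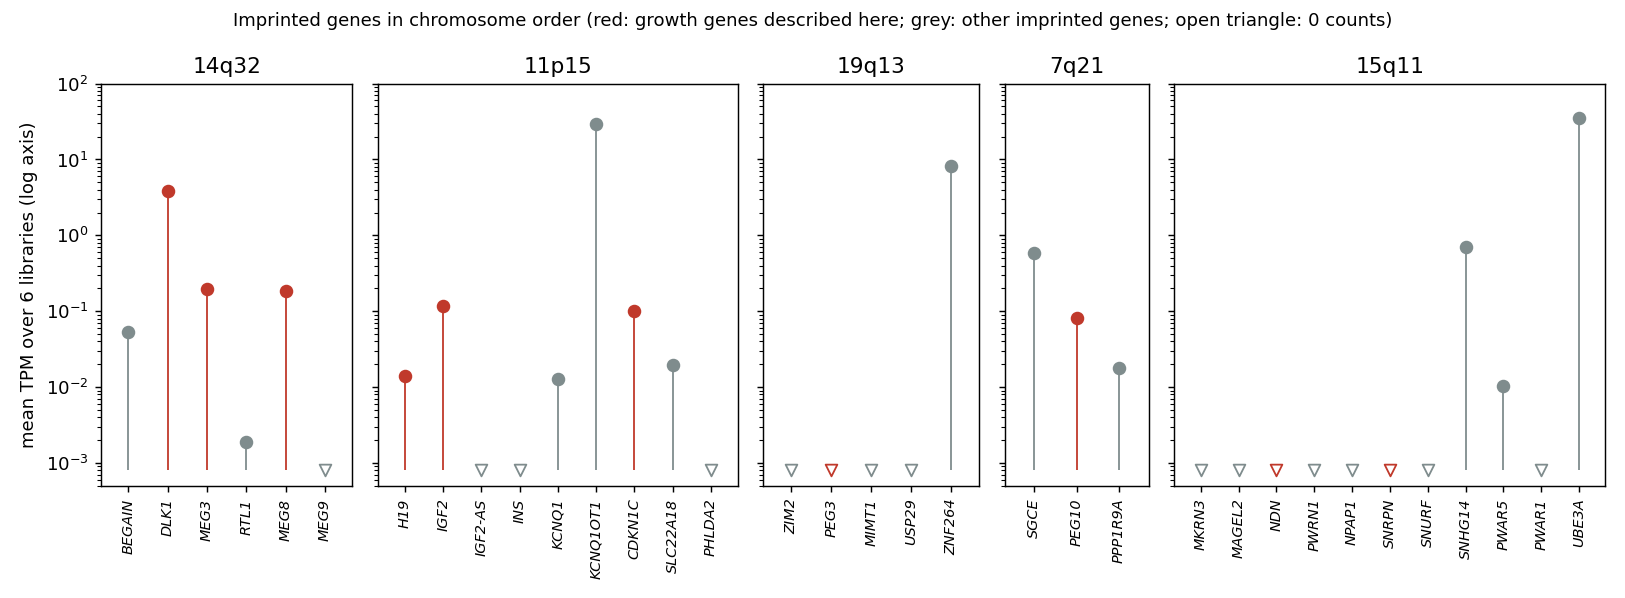
Mean TPM over 6 libraries (log axis) of imprinted genes in chromosome order at the 5 loci, with the growth genes in red, other imprinted genes in grey and genes at 0 as open triangles. *KCNQ1OT1*, *ZNF264* and *UBE3A* have 29.1, 8.17 and 35.5 TPM beside members at or near 0.

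At 7q21, *PEG10* (ENSG00000242265.6, chr7:94656325-94669695, plus strand), a gene derived from a retrotransposon that is needed in the placenta, had 4, 4 and 3 counts in EtOH and 7, 8 and 15 counts in Tet libraries. Every Tet library, at 0.248, 0.226 and 0.377 CPM, lay above every EtOH library, at 0.112, 0.144 and 0.0992 CPM. The Tet level was 2.38 times the EtOH level from 30 and 11 counts, with an exact counting interval from 1.16 to 5.27, and the exact permutation test gave p = 0.1, the smallest it allows. *PEG10* had too few counts for the main test, and without the filter its log2 fold change was 1.24 (SE 0.81, adjusted p = 0.739 by edgeR). *SGCE*, the paternally expressed sarcoglycan gene that starts head to head with it, had 4.74 ± 0.63 CPM in EtOH and 4.26 ± 0.87 CPM in Tet libraries (SD, n = 3; log2 fold change -0.15, SE 0.26, adjusted p = 0.9 by edgeR). The next gene, *CASD1*, was expressed at 55.8 TPM.

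At 19q13 and 15q11, the members had no count in any library. *PEG3* (ENSG00000198300.14, chr19:56810077-56840728, minus strand), a zinc finger gene known as a tumour suppressor and a regulator of maternal behaviour, was at 0, and so were its paternally expressed neighbours *USP29*, *MIMT1* and *ZIM2*. The next gene of the cluster, *ZNF264*, had 35.8 ± 2.85 CPM in EtOH and 39.6 ± 4.31 CPM in Tet libraries (SD, n = 3), and 23 of the 58 neighbours within 500000 bases were expressed enough to be tested. *PEG3* was thus at 0 amid expressed zinc finger genes. *SNRPN* (ENSG00000128739.23, chr15:24823637-24978723, plus strand), which encodes a core protein of the splicing machinery, and *NDN* (ENSG00000182636.8, chr15:23685400-23687305, minus strand), which encodes the neuronal growth suppressor necdin, were at 0 together with *SNURF*, *MAGEL2*, *MKRN3*, *NPAP1* and *PWRN1*. These are only part of the paternally expressed genes of the Prader-Willi region, and *SNHG14*, also of that region, had 6187.17 counts. A count of 0 over 197653285 counts allows a level of up to 0.0152 CPM over all libraries. A ratio of *SNRPN* to *NDN* could not be formed.

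Other genes of 15q11 were expressed. *UBE3A*, the ubiquitin ligase of Angelman syndrome, expressed from the maternal copy in neurons, had 238 ± 43.1 CPM in EtOH and 256 ± 16.2 CPM in Tet libraries (SD, n = 3; log2 fold change 0.10, SE 0.17, adjusted p = 0.896 by edgeR). *SNHG14*, the long noncoding RNA that starts near *SNRPN* and runs antisense to *UBE3A*, had 30.5 ± 3.41 and 32.2 ± 6.47 CPM (log2 fold change 0.08, adjusted p = 0.941 by edgeR). Strand was not used in counting, and reads of *UBE3A* and of its antisense RNA cannot be told apart. Of 84 snoRNA genes in the windows of *SNRPN* and *NDN*, which *SNHG14* hosts in large part, 9 had a count, with 13.66 counts in all. Of the 125 neighbours at 15q11, 105 were at 0, against 83 of 145 at 14q32 and 50 of 90 at 11p15. At 19q13 these were 18 of 58, at 7q21 11 of 17, and over all genes 19736 of 60651. The windows differ in gene types, with 84 snoRNA genes at 15q11 and 1 at 11p15, and the part of this was not tested.

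Over the set, 4 of the 10 members had enough counts to be tested and 0 passed an adjusted p of 0.05, against 0.236% of the 22443 genes tested (53 genes, 33 higher and 20 lower in Tet libraries). By DESeq2, 0 of the members passed as well, but *IGF2* had no adjusted p there and could not pass. By edgeR, 1 of the 4 (*IGF2*) had an unadjusted p under 0.05. The median log2 fold change of the 4 was 0.22, and that of all genes tested was -0.01. The intervals of *DLK1* and *MEG3* still included log2 differences of up to 1.06 and 1.04. Of the 435 neighbours within 500000 bases, 51 were tested and 0 passed, with 4 under an unadjusted p of 0.05, against the 10.8% of all genes tested, and a median log2 fold change of 0.17. These 4 were *WARS1*, *CASD1*, *ZNF543* and ENSG00000284779, which shares the reads of *IGF2*. Among neighbours with a mean of at least 1 CPM, those with the lowest p besides *WARS1* were *CASD1* (0.43, SE 0.17), *ZNF543* (0.50, SE 0.22) and *ZNF71* (0.45, SE 0.20), with adjusted p-values of 0.39, 0.456 and 0.465 by edgeR, and the most abundant besides *CASD1* was *ZNF195* at 74.2 TPM.

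Imprinted genes outside the set were counted in the same way. Of 53 listed, 51 had a row, 32 had a count and 24 were tested, of which 0 passed and 2 had an unadjusted p under 0.05 by edgeR, both higher in Tet libraries, beside 10.8% of all genes tested. By sign, 19 lay above 0 and 5 below, with a median of 0.16, and of all genes tested 11069 lay above 0 and 11374 below, with a median of -0.01. *NAP1L5*, a nucleosome assembly protein gene within an intron of *HERC3*, had 15.5, 16 and 14.5 CPM in EtOH and 26.1, 26.8 and 20.5 CPM in Tet libraries. Its groups did not overlap, and its log2 fold change was 0.67 (SE 0.18, 95% interval 0.27 to 1.08; adjusted p = 0.197 by edgeR). *NNAT*, the neuronal proteolipid neuronatin, and *BLCAP*, in whose intron it lies, had log2 fold changes of 0.71 (SE 0.34) and 0.41 (SE 0.18), with adjusted p-values of 0.509 and 0.452 by edgeR. The *NNAT* value was 0.37 without Tet replicate 2 and 0.47 without EtOH replicate 3. *PLAGL1*, a zinc finger regulator of other imprinted genes, had a log2 fold change of 0.34 (SE 0.19, adjusted p = 0.579 by edgeR). The most abundant were *GNAS*, the stimulatory G protein subunit, at 91.8 TPM, and *RB1*, the retinoblastoma gene, at 65.4 TPM, with log2 fold changes of 0.01 (SE 0.16) and 0.29 (SE 0.27).

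**Figure D4:**
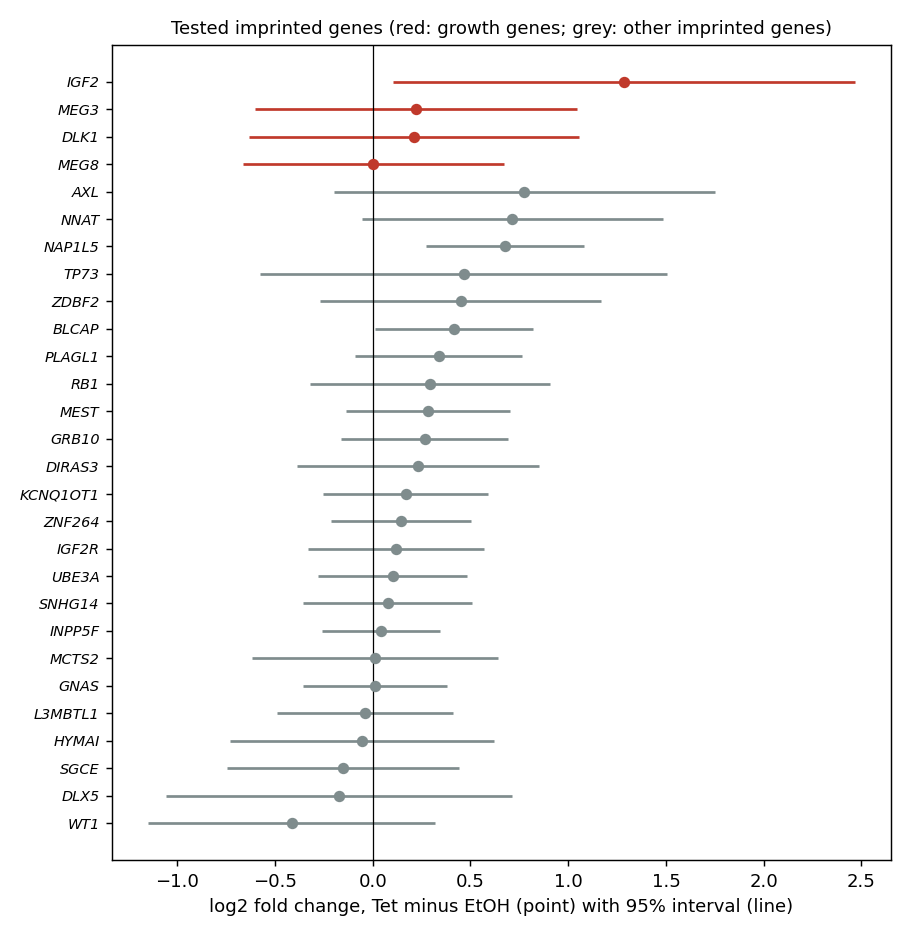
Log2 fold change, Tet minus EtOH (points, with 95% intervals as lines), of the 4 tested growth genes (red) and the 24 other tested imprinted genes (grey), ordered by size within each set. *IGF2* has the largest fold change and the widest interval, 0.10 to 2.47, and no gene passed the adjusted threshold.

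Regulators of imprints were present, with exceptions. Of 20 listed, 17 had a count and 16 were tested, and 0 passed, with 2 under an unadjusted p of 0.05 by edgeR, beside 10.8% of all genes tested. At 0 were *ZFP57*, whose protein binds the hexamer printed above, *DNMT3L*, a cofactor of methylation in germ cells, and *DPPA3*, an egg and early embryo factor. *ZNF445*, which acts alongside *ZFP57*, had 21.6 TPM. The methyltransferase gene *DNMT3A* had 44.5, 44.8 and 44.5 CPM in EtOH and 61.4, 68.3 and 58.5 CPM in Tet libraries, without overlap (log2 fold change 0.49, SE 0.14, adjusted p = 0.239 by edgeR). Its paralogue *DNMT3B* had 6.78, 11.6 and 6.35 CPM in EtOH and 4.25, 5.3 and 3.45 CPM in Tet libraries, without overlap in the other direction (log2 fold change -0.93, SE 0.31, adjusted p = 0.312 by edgeR), and without EtOH replicate 2, its highest library, the value was -0.59. *ARID4A* and *ARID4B*, chromatin proteins of the Prader-Willi imprinting centre, had log2 fold changes of 0.29 (SE 0.16) and 0.37 (SE 0.22), with adjusted p-values of 0.567 and 0.612 by edgeR. The most abundant were *HELLS*, a helicase of DNA methylation, at 176 TPM and *SMCHD1*, a silencing protein of imprinted clusters, at 143 TPM.

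The pathways in which *IGF2*, *DLK1* and *CDKN1C* act held the only call among these lists. Of 32 listed genes of insulin-like growth factor (IGF) signalling, Notch signalling and the kinase inhibitors of the cell cycle, 26 were tested. *GRB14*, an adaptor that inhibits the insulin receptor, fell, from 7.31, 6.46 and 7.24 CPM in EtOH to 2.09, 2.48 and 1.56 CPM in Tet libraries (log2 fold change -1.78, SE 0.26, adjusted p = 0.0464 by edgeR). The list was chosen with earlier results of these data known, so its shares are descriptions only. Its 1 call of 26 stands beside the 0.236% of all genes tested that were called. This call was lost under 7 of the other settings, RLE size factors, a minimum of 10 counts and the absence of any library but EtOH replicate 2, with a log2 fold change between -1.94 and -1.61 without 1 library. The median log2 fold change of the list was -0.14, beside -0.01 over all genes tested, and 9 of the 26 genes had an unadjusted p under 0.05, 3 higher and 6 lower in Tet libraries, where 10.8% of all genes tested did.

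Receptors, binding proteins and targets of *IGF2* are given next; these genes were chosen after their values were seen. *IGF1R*, through which IGF2 signals, had 104 ± 6.23 CPM in EtOH and 101 ± 12.3 CPM in Tet libraries (SD, n = 3; log2 fold change -0.05, 95% interval -0.39 to 0.30). *IGF2R*, which clears IGF2, had 90.4 ± 20.3 and 98.2 ± 12.7 CPM (log2 fold change 0.12, 95% interval -0.33 to 0.57). The messenger RNA binding proteins *IGF2BP1* and *IGF2BP3* were abundant, at 103 and 67.3 TPM, beside the near absence of *IGF2* reads. *IGF2BP2* had 44, 36.3 and 46.5 CPM in EtOH and 28.3, 21.9 and 27.4 CPM in Tet libraries (log2 fold change -0.71, SE 0.18, adjusted p = 0.181 by edgeR). *IGFBP5*, which binds IGFs outside the cell, had 8.34, 17.9 and 8 CPM in EtOH and 19.6, 41.3 and 26.1 CPM in Tet libraries (log2 fold change 1.35, SE 0.38, adjusted p = 0.234 by edgeR).

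Among the kinase inhibitors related to *CDKN1C*, *CDKN1A* (p21) had 3.31 ± 1.05 CPM in EtOH and 6.91 ± 3.04 CPM in Tet libraries (SD, n = 3; log2 fold change 1.06, SE 0.38, adjusted p = 0.354 by edgeR). Without Tet replicate 3 its log2 fold change was 0.64. *CDKN1B* (p27) was the most abundant of the 3 inhibitors, at 43.9 TPM, and *CDKN1C* the least, at 0.1 TPM. *CCND1*, the cyclin D1 that drives entry into the cell cycle, had 151, 295 and 158 CPM in EtOH and 533, 688 and 421 CPM in Tet libraries (log2 fold change 1.44, SE 0.30, adjusted p = 0.11 by edgeR). *HES1*, a target of the Notch pathway that *DLK1* inhibits, had 0.502, 1.3 and 1.19 CPM in EtOH and 0.0709, 0.197 and 0.176 CPM in Tet libraries (log2 fold change -2.68, SE 0.59, adjusted p = 0.131 by edgeR). Only the EtOH libraries carried *HES1* past the filter on low counts, so its place among tested genes already needed a high EtOH value. By DESeq2, which called 2.23% of the 22418 genes with an adjusted p, *IGFBP5*, *IGF2BP2*, *CCND1* and *HES1* passed, with adjusted p-values of 0.0368, 0.0481, 0.00229 and 0.00904. With the replicate block, under which 675 of the 22443 genes tested passed, these 4 genes passed too by edgeR. Their adjusted p-values were then 0.0032, 0.0228, 0.000875 and 0.0245, in the same order. These 4 genes had been chosen after their values were seen.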

How the data were processed

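Gene-level values of 6 libraries were analysed, 3 titled EtOH and 3 titled Tet. Reads were trimmed, aligned to GRCh38 with STAR and, where the alignment was unique, counted on exons with featureCounts 1.6.4 by the authors, per the file headers, as estimated counts, dividing a read pair among overlapping genes and not using strand, although the kit was stranded; the submitters' processing notes name STAR 2.7.1a and featureCounts 1.5.1. The deposited estimated counts were not scaled. They were rounded, because the plan had been made for whole counts.

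Low genes were removed with filterByExpr, and the rest scaled by TMM and tested with edgeR 4.0.16 (quasi-likelihood F test, R 4.3.3), with Benjamini-Hochberg adjustment over all genes and a threshold of 0.05; the SE is the size of the log2 fold change divided by the square root of F. The fit was also run on simulated data. Changes were set there only in genes above the levels of *IGF2*, *PEG10*, *CDKN1C* and *H19*, so the simulation says nothing of these members. TPM used exon lengths. Ratios within a locus used a prior of 0.5 counts. DESeq2 1.42.0, other scalings and filters, a replicate block, each library left out and a GC correction were alternatives. Of 53026 identifiers shared with GENCODE 44, 53025 had the same coordinates. Members and lists were chosen with earlier results of these data known. Named genes were the members, list genes past the threshold, or otherwise the 4 with the lowest p at 1 CPM or more and the 2 highest in TPM, for likeness the 2 with the highest correlation, and *MYCN*; others were chosen after their values were seen, and so were the markers named. A further marker is not reported here.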

Additional observations from a re-analysis of the deposited data

How the results depend on the processing

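The count of members past the threshold was 0 under each alternative, and likewise 0 for the neighbours, other imprinted genes and imprint regulators. For members without an adjusted p under a setting, this 0 was fixed in advance. *IGF2* had values under 12 alternatives, against 14 for *DLK1*, *MEG3* and *MEG8*. It had none by DESeq2 or with at least 10 counts in every library. Over all genes, 53 passed, against 499 by DESeq2, 302 without the filter on low counts, 675 with the replicate block and 121 with the GC correction, which was chosen after seeing the data; leaving out 1 library gave 692 without EtOH replicate 2 and between 0 and 2 without any other. Of the pathway genes, 1 passed, against 0 with RLE size factors or at least 10 counts in every library, 5 by DESeq2 or with the replicate block, 4 without the filter and between 0 and 4 without 1 library. Same-numbered libraries had correlations of 0.0603, 0.51 and 0.219 after removing group means. All were positive but uneven, and whether the numbers pair the libraries is not settled by them. The main fit therefore did not pair them, and the replicate block was kept as an alternative. With the block as sign flips within pairs, the difference was -0.04 for the *MEG3* to *DLK1* ratio and 0.16 for *MEG3* to *MEG8*.

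Left-out libraries moved the *MEG3* to *DLK1* difference between -0.25 and 0.31 (without EtOH replicate 2) and that of *MEG3* to *MEG8* between -0.026 (without Tet replicate 3) and 0.27. A prior of 2 counts kept both signs, and the *H19* to *IGF2* and *SNRPN* to *NDN* ratios could not be formed under any setting. Of 37 genes refitted, those whose log2 fold change turned sign without 1 library ranged as follows: *DLK1* -0.19 to 0.41, *MEG3* -0.14 to 0.38, *MEG8* -0.11 to 0.089, *GNAS* -0.088 to 0.12, *HELLS* -0.53 to 0.20, *SMCHD1* -0.21 to 0.16, *IGF2BP1* -0.24 to 0.13, *IGF2BP3* -0.31 to 0.11, *IGF2R* -0.031 to 0.27, *IGF1R* -0.13 to 0.047, *UBE3A* -0.018 to 0.26, *SNHG14* -0.099 to 0.18, *SGCE* -0.27 to 0.0071 and *MYCN* -0.22 to 0.21. Of those that kept their sign, *KCNQ1OT1* ranged from 0.022 (without EtOH replicate 1) to 0.36 (EtOH replicate 2), *RB1* from 0.095 to 0.66 (the same libraries), *ARID4B* from 0.22 to 0.63 (the same), *ARID4A* was 0.19 (EtOH replicate 1) and *PLAGL1* was 0.22 (EtOH replicate 3). *MEG8* also turned to -0.015 with RLE size factors, -0.0102 by DESeq2, -0.0047 without the filter, -0.00198 with the replicate block and -0.036 with the GC correction, and *GNAS* to -0.0068, -0.0036 and -0.11 with RLE, DESeq2 and the GC correction. Of 515 refitted fold changes, 465 kept sign and side of the threshold, 29 turned sign, 14 newly passed and 7, all of *GRB14*, no longer passed. The cause of these moves was not tested. A count of 0 in a library allows a level of up to 0.0741 to 0.107 CPM, depending on its depth.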
